A study of Homo sapiens with 28 samples.

Results

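The 10 genes described here encode enzymes and core subunits that write and erase repressive chromatin marks, and they were taken by symbol from a count table of 61815 human genes. EZH1, EZH2, EED and SUZ12 are parts of Polycomb repressive complex 2 (PRC2), DNMT1, DNMT3A and DNMT3B are DNA methyltransferases, and TET1, TET2 and TET3 are 5-methylcytosine dioxygenases. Each symbol matched 1 row, and all 10 passed the filter on low counts in both experiments. The RNA came from LNCaP, a human prostate cancer cell line, with the genotype given as WT. All 28 libraries were made from cells kept for 72 h in charcoal-stripped serum, which removes steroid hormones, before treatment began. In the first experiment the cells then received DMSO vehicle, 1 µM Senexin B, 0.1 nM of the synthetic androgen R1881, or R1881 with Senexin B for 24 h, with 3 libraries in each group. In the second they received DMSO vehicle, 500 nM SNX631, 1 nM R1881, or R1881 with SNX631 for 72 h, with 4 libraries in each group. Senexin B and SNX631 inhibit the Mediator kinases CDK8 and CDK19. The Senexin B dose is that of the sample labels, and the text of the study names a higher one. The inhibitor, the R1881 dose and the time all changed between the experiments and cannot be told apart. The study states that each condition of its RNA-Seq had at least 3 biological replicates. The labels do not say whether replicate libraries came from separate cultures, so p-values measure only the spread between these libraries.

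PRC2 places methyl groups on lysine 27 of histone H3, a mark of silenced genes. EZH2 and EZH1 are its alternative catalytic subunits, while EED and SUZ12 are needed by either. EZH2 is known to be abundant in dividing cells and in advanced prostate cancer, and EZH1 is the form associated with resting cells. DNMT1 copies the methylation pattern onto newly made DNA at replication, DNMT3A and DNMT3B set methylation at new sites, and the TET enzymes oxidise 5-methylcytosine as the first step of its removal.

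The promoters of 5 genes are printed because EZH2 and DNMT1 had the largest increases with R1881 among the 10 genes, SUZ12 rose in each of the main comparisons but 1, and EZH1 and TET2 fell with R1881. They are RefSeq sequences of build GRCh38.p14, 5′ to 3′ on the strand of the gene, from 250 bases before the start of transcription to 30 bases from it on. Capitals mark the words TTTCCCGC, TTTGGCGC, TTTCGCGC and TTTGCCGC, which resemble E2F binding sites, on either strand.
EZH2: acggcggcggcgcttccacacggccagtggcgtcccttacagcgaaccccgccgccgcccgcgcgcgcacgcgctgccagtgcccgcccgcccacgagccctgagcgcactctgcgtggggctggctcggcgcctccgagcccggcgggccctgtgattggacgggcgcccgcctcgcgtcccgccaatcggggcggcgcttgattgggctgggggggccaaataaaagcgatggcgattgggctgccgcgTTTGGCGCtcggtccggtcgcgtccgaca
DNMT1: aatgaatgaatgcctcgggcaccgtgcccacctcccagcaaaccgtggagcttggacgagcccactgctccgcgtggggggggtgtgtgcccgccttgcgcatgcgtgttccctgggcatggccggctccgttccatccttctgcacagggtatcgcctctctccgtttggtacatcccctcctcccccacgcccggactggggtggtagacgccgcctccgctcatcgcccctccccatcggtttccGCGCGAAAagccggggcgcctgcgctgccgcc
SUZ12: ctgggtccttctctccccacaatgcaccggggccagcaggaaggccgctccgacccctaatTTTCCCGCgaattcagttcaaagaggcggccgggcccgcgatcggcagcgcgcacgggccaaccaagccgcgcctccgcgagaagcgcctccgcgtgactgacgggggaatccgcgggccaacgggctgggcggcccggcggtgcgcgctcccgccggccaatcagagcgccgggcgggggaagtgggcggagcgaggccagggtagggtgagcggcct
EZH1: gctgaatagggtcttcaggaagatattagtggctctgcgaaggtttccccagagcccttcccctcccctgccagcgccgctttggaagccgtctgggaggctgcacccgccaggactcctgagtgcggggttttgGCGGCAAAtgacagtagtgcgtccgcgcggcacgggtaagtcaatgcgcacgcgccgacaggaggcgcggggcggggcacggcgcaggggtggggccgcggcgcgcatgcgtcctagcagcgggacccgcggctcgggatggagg
TET2: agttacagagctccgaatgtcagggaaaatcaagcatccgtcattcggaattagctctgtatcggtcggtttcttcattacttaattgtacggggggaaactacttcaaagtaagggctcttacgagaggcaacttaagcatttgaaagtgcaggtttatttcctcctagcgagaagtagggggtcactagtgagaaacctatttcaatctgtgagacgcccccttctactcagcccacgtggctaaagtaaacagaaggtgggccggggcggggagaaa

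The EZH2 window lay at chr7:148884262-148884541 on the minus strand, DNMT1 at chr19:10194924-10195203 on the minus strand, SUZ12 at chr17:31936757-31937036 on the plus strand, EZH1 at chr17:42745011-42745290 on the minus strand and TET2 at chr4:105145625-105145904 on the plus strand. All 10 genes matched a promoter, and 4 of them (EZH1, EZH2, SUZ12 and DNMT1) held an E2F-like word, against 3.14% of the 35116 promoters in the table. These 4 windows had G or C at 68.2 to 75.0% of bases and held 27 to 45 CG pairs. The medians of all promoters were 58.2% and 13, and the 3.14% was not adjusted for base composition. In EZH2 the word began 1 base after the start, and in DNMT1 it began 2 bases before it. In SUZ12 it began 189 bases before the start and in EZH1 115 bases before it. CCAAT was found in EZH2 (4 matches), EED, SUZ12 and DNMT3B, against 33.6% of promoters. No window of the 10 genes held AGAACA or TGTTCT, which resemble part of an androgen receptor site, against 13.8% of promoters. CACGTG was found in TET2 and TET3, against 6.94% of promoters, TTTGAA in SUZ12 and TET2, against 14.5%, and GGGCGG in EZH1, EZH2, SUZ12, TET2 and TET3, against 44.1%. The DNMT3B window, the only one listed for that gene, began at chr20:32779602 on the plus strand and held 3 CG pairs. It lay inside the gene as annotated in GENCODE, which starts at 32762385. The DNMT1 window also lay inside its gene, which starts at 10231286 on the minus strand. For DNMT3B and DNMT1 the sequence at the GENCODE start was thus not searched. These matches describe the letters of the windows and nothing of binding.

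In GENCODE 29 (build GRCh38) the catalytic subunit genes lay at chr17:42700275-42745049 (EZH1, ENSG00000108799.13) and chr7:148807383-148884321 (EZH2, ENSG00000106462.12), and the core subunit genes at chr11:86244544-86278813 (EED, ENSG00000074266.22) and chr17:31937018-32001045 (SUZ12, ENSG00000178691.11). DNMT1 (ENSG00000130816.17) lay at chr19:10133345-10231286, DNMT3A (ENSG00000119772.19) at chr2:25227855-25342590 and DNMT3B (ENSG00000088305.19) at chr20:32762385-32809356. TET1 (ENSG00000138336.9) lay at chr10:68560656-68694482, TET2 (ENSG00000168769.14) at chr4:105145875-105279816 and TET3 (ENSG00000187605.16) at chr2:73986404-74108176. The table holds 1 value per gene and library, so transcripts of a gene are not separated.

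Library totals ran from 9846595 to 33809419 counts, and all but 1 library were at or below 15248512. The luminal prostate genes KRT8, KRT18, FOXA1 and HOXB13 were found at 278 CPM or more in every library, where CPM is the count scaled to a common library size after TMM normalisation. The luminal genes known to respond to androgen varied more, with KLK3 at 0.698 to 147 CPM, KLK2 at 0.414 to 353 CPM and TMPRSS2 at 14.2 to 269 CPM. Of the basal markers, TP63 and KRT5 had at most 1 count in a library and KRT14 and KRT15 at most 5. Of the endothelial and leukocyte markers, CDH5 and CD14 had at most 1 count, PECAM1 at most 2, PTPRC at most 3 and CD3E 0. COL1A1, a collagen gene on the fibroblast list, stood apart at 7.34 to 31.4 CPM, whereas LUM, DCN and COL1A2 of that list stayed at or below 0.991 CPM, and VWF of endothelium ran from 0.331 to 4.55 CPM.

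Levels differed widely between the genes when given per kilobase of exon. In the 24 h vehicle group SUZ12 stood at 13.1 CPM per kb, TET3 at 8.51 and DNMT1 at 7.97. DNMT3A followed at 4.81, TET2 at 3.86, EZH1 at 3.83 and EZH2 at 3.26 CPM per kb. EED stood at 1.92, DNMT3B at 1.24 and TET1 at 0.427 CPM per kb. TET1 was thus the gene with the least depth, with 26 to 159 counts per library, and DNMT3B had 59 to 211.

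**Figure D1:**
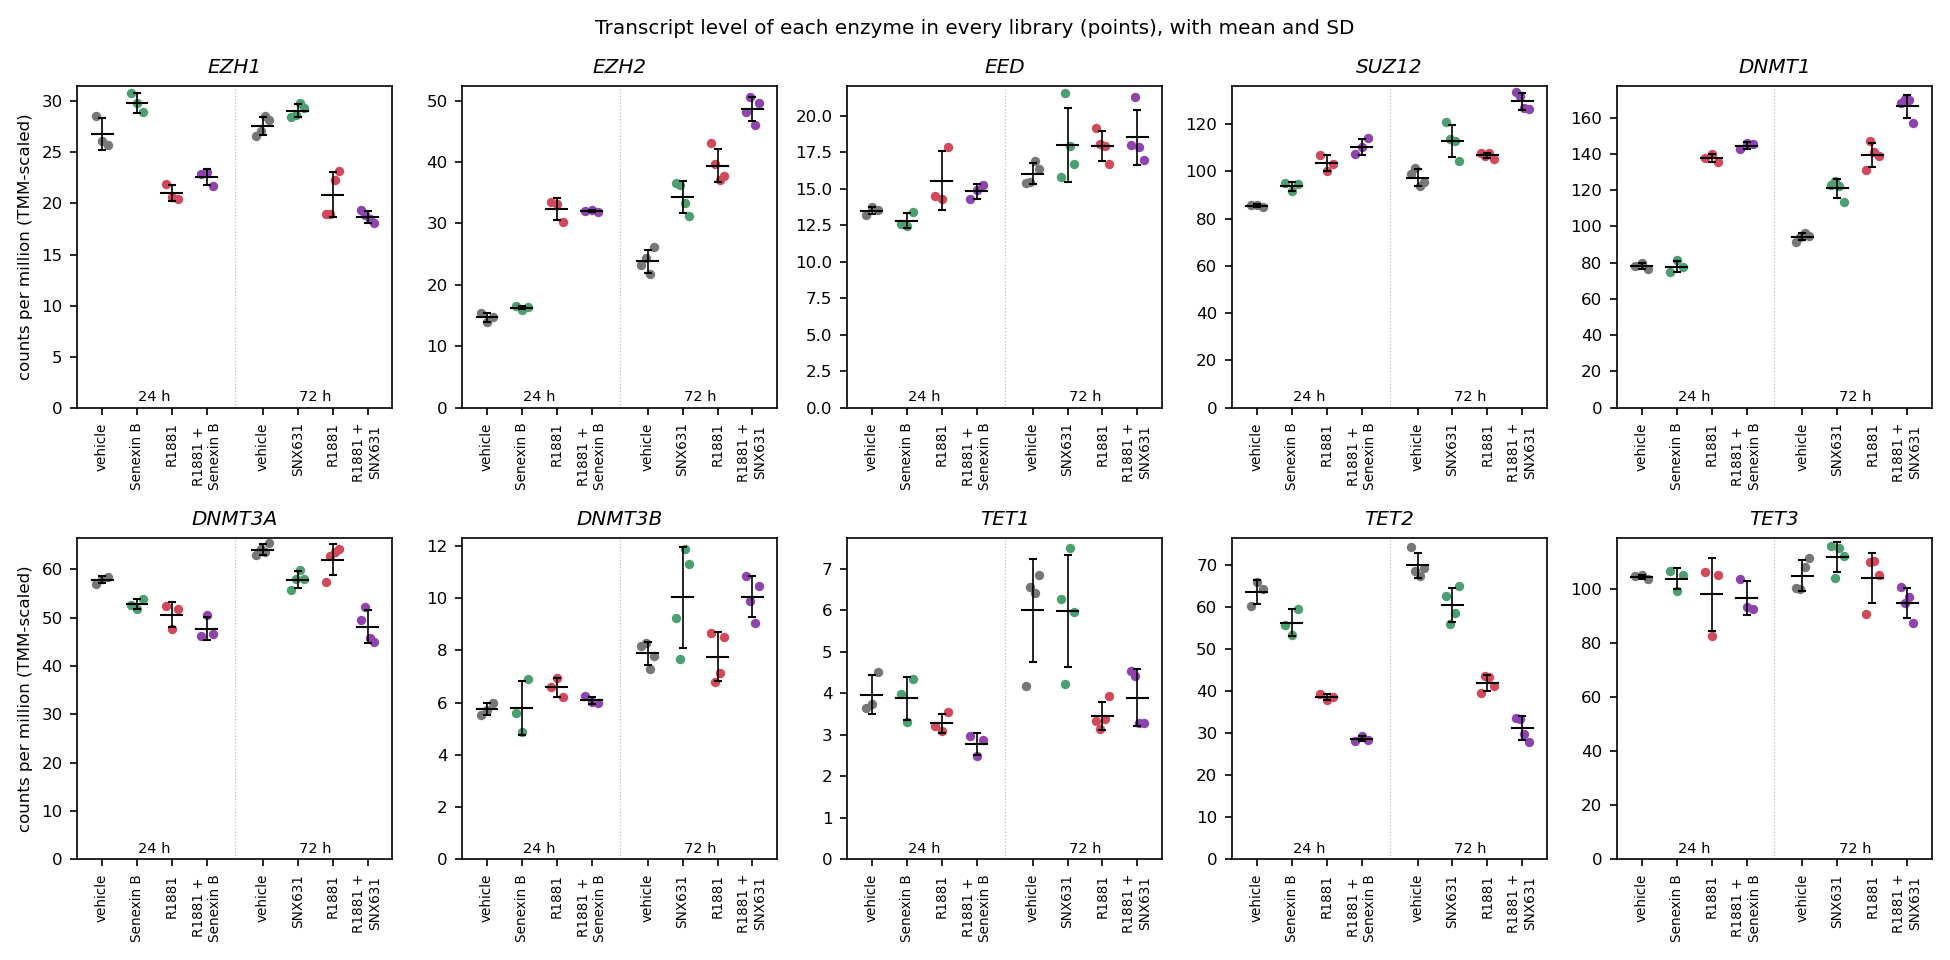
TMM-scaled CPM (vertical axis, from 0) of the 10 genes in each of the 28 libraries (points), by treatment at 24 h and 72 h (horizontal axis), with the group mean (line) and SD (bars). EZH2 and DNMT1 are highest in the 4 libraries given R1881 with SNX631, at 48.6 and 166 CPM on average, and TET2 is lowest in the R1881 groups.

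R1881 raised EZH2 and DNMT1 and lowered TET2 in both experiments. A gene is said to have passed the test when its false discovery rate (FDR) in edgeR's quasi-likelihood test, adjusted over all genes tested, was under 0.01, and to have been called when it also changed by more than 1.5-fold. With R1881 at 24 h, 3 of 10 genes were called (EZH2, DNMT1 and TET2), against 19% of the 15963 genes tested. EZH2, SUZ12 and DNMT1 passed upward, 3 of 10 against 26.2% of all genes, and EZH1, DNMT3A and TET2 passed downward, again 3 of 10 against 22.1%. At 72 h the called genes were EZH2, TET1 and TET2, 3 of 10 against 19.8% of 16084 genes tested. The same EZH2, SUZ12 and DNMT1 passed upward, 3 of 10 against 27.6%, and EZH1, TET1 and TET2 passed downward, against 24.6%. The shares that passed were thus near those of all genes. The median log2 change over the 10 genes was 0.04 at 24 h and -0.02 at 72 h, beside -0.02 and -0.01 over all genes tested. Library ranges with R1881 and vehicle did not overlap for 9 of 10 genes at 24 h and 6 of 10 at 72 h. Over all genes tested the shares were 62.0% and 54.9%, so a lack of overlap was common.

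EZH2 stood at 15.5, 14.0 and 14.7 CPM in the 24 h vehicle libraries and at 33.6, 33.2 and 30.3 CPM with R1881. The ranges did not overlap, and EZH2 was 2.20-fold higher with R1881 (log2 change 1.14 ± 0.07 SE, FDR 5.12e-16). At 72 h it stood at 23.2, 24.3, 21.8 and 26.2 CPM in vehicle and at 43.0, 39.7, 37.1 and 37.8 CPM with R1881. These groups were also apart, by 1.64-fold (log2 change 0.72 ± 0.06, FDR 1.02e-12). The increase was smaller in the 72 h experiment, with a difference in log2 change of -0.42 ± 0.09 (FDR 0.000849, fit of all 28 libraries). Of the 10 genes, EZH2 and DNMT1 passed this test of a difference in the R1881 effect, against 7.52% of 16685 genes.

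DNMT1 rose from 78.0, 79.8 and 76.5 CPM in vehicle to 138, 140 and 136 CPM with R1881 at 24 h. The 3 R1881 libraries lay far above the vehicle ones, and the increase was 1.77-fold (log2 change 0.82 ± 0.04, FDR 1.64e-18). At 72 h DNMT1 went from 91.6, 94.1, 96.5 and 94.7 CPM to 131, 147, 141 and 139 CPM. Here the change of 1.48-fold (log2 0.57 ± 0.04, FDR 2.99e-16) passed the test but lay just under the fold limit, and without R1881 replicate 1, the lowest of its group, it was 0.59 on the log2 scale and was called. The difference between the experiments was -0.26 ± 0.05 (FDR 0.000462). The S1PR2 gene overlaps DNMT1 on the same strand in GENCODE 29, and 14 libraries had a fractional DNMT1 count. Fractions were also found in 12 libraries for EED, 9 for EZH1 and 7 for TET3, which no gene overlaps on its strand. Whether S1PR2 bears on the DNMT1 fractions was not tested.

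The genes that are needed for DNA replication and mitosis rose with R1881, as EZH2 and DNMT1 did. All 53 genes of a cell cycle list were called higher with R1881 at 24 h and 52 of 53 at 72 h, with median log2 changes of 2.16 and 1.42. Of all genes tested, 1566 of 15963 and 1557 of 16084 were called higher. The log2 change of MKI67, a proliferation marker, was 2.91 at 24 h and 1.77 at 72 h. The other examples were MCM2, a subunit of the replicative helicase, at 1.71 and 0.98, and TOP2A, which untangles DNA at mitosis, at 2.92 and 1.56. The summed level of the 28 S phase genes was 560 to 590 CPM in 24 h vehicle and 1954 to 2070 CPM with R1881. At 24 h Senexin B changed neither EZH2 nor DNMT1 past the test, with or without R1881. The summed level was 703 to 766 CPM with Senexin B and 2220 to 2446 CPM with both. At 72 h it was 877 to 906 CPM in vehicle, 1432 to 1542 CPM with SNX631, 2039 to 2065 CPM with R1881 and 2797 to 2846 CPM with both. The part of these values in the EZH2 and DNMT1 results was not tested, and in bulk RNA a larger share of cycling cells and more RNA per cell cannot be told apart.

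TET2 fell with R1881 in both experiments by nearly equal amounts. It stood at 60.5, 65.9 and 64.4 CPM in 24 h vehicle and at 39.4, 37.9 and 38.6 CPM with R1881 (log2 change -0.73 ± 0.05, FDR 9.26e-14). At 72 h it went from 74.3, 68.7, 67.5 and 69.4 CPM to 39.7, 43.8, 43.4 and 41.2 CPM (log2 change -0.73 ± 0.05, FDR 3.60e-15). In neither experiment did a single R1881 library reach the vehicle range. TET2-AS1 lies within TET2 on the opposite strand. The library kit keeps strand, but the strand setting of the counting was not given in the sources used here.

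TET1 was the least abundant of the family. At 72 h it stood at 4.17, 6.55, 6.42 and 6.86 CPM in vehicle and at 3.34, 3.14, 3.38 and 3.94 CPM with R1881, groups that did not overlap, and it fell by 0.80 ± 0.17 on the log2 scale (FDR 8.01e-05). At 24 h its change of -0.33 ± 0.16 had an FDR of 0.0771 and did not pass, with 3.66, 3.73 and 4.52 CPM in vehicle and 3.21, 3.08 and 3.54 CPM with R1881. In the presence of Senexin B the R1881 change of TET1 was -0.48 ± 0.18 (FDR 0.0238), and it passed (-0.55) with library totals as the only scaling. TET3, the most abundant of the 3 TET genes per kb, did not pass at either time. Its R1881 libraries spread from 82.4 to 106 CPM at 24 h, with replicate 2 lowest, and its vehicle libraries from 104 to 105 CPM.

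EZH1 moved opposite to EZH2. It stood at 28.6, 26.1 and 25.7 CPM in 24 h vehicle and at 21.9, 20.6 and 20.5 CPM with R1881 (log2 change -0.33 ± 0.07, FDR 6.97e-05). At 72 h vehicle libraries held 26.6 to 28.5 CPM and R1881 libraries 18.9 to 23.1 CPM (log2 change -0.40 ± 0.06, FDR 6.64e-07). Both changes were smaller than 1.5-fold. SUZ12 had a log2 change of 0.28 ± 0.04 at 24 h (FDR 4.45e-07), going from 84.9 to 86.0 CPM in vehicle to 100.2 to 107 CPM with R1881. At 72 h the SUZ12 change of 0.13 ± 0.04 (FDR 0.00243) no longer passed without vehicle replicate 3 (0.11) or 4 (0.12), nor with library totals as the only scaling (0.03). EED stood at 13.2 to 13.7 CPM in 24 h vehicle and at 14.3 to 17.9 CPM with R1881, with replicate 3 highest, and did not pass (log2 change 0.20 ± 0.09, FDR 0.0423). At 72 h it held 15.4 to 16.9 and 16.7 to 19.1 CPM and did not pass either (0.16 ± 0.08, FDR 0.101).

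The de novo methyltransferases changed little with R1881. DNMT3A fell by 0.20 ± 0.05 (log2) at 24 h (FDR 0.000862), from 57.0, 58.0 and 58.5 CPM to 52.4, 47.7 and 51.7 CPM. It no longer passed without vehicle replicate 3 (-0.18) or R1881 replicate 2 (-0.15), and with DESeq2 (-0.19) or with counts thinned at random to the smallest library total (-0.15). At 72 h its change was -0.04 ± 0.04 (FDR 0.388) with TMM scaling and -0.15, past the test, with library totals alone. DNMT3B did not pass in either experiment, at 5.53 to 5.99 CPM in vehicle and 6.21 to 6.96 CPM with R1881 at 24 h and at 7.28 to 8.30 and 6.78 to 8.67 CPM at 72 h.

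**Figure D2:**
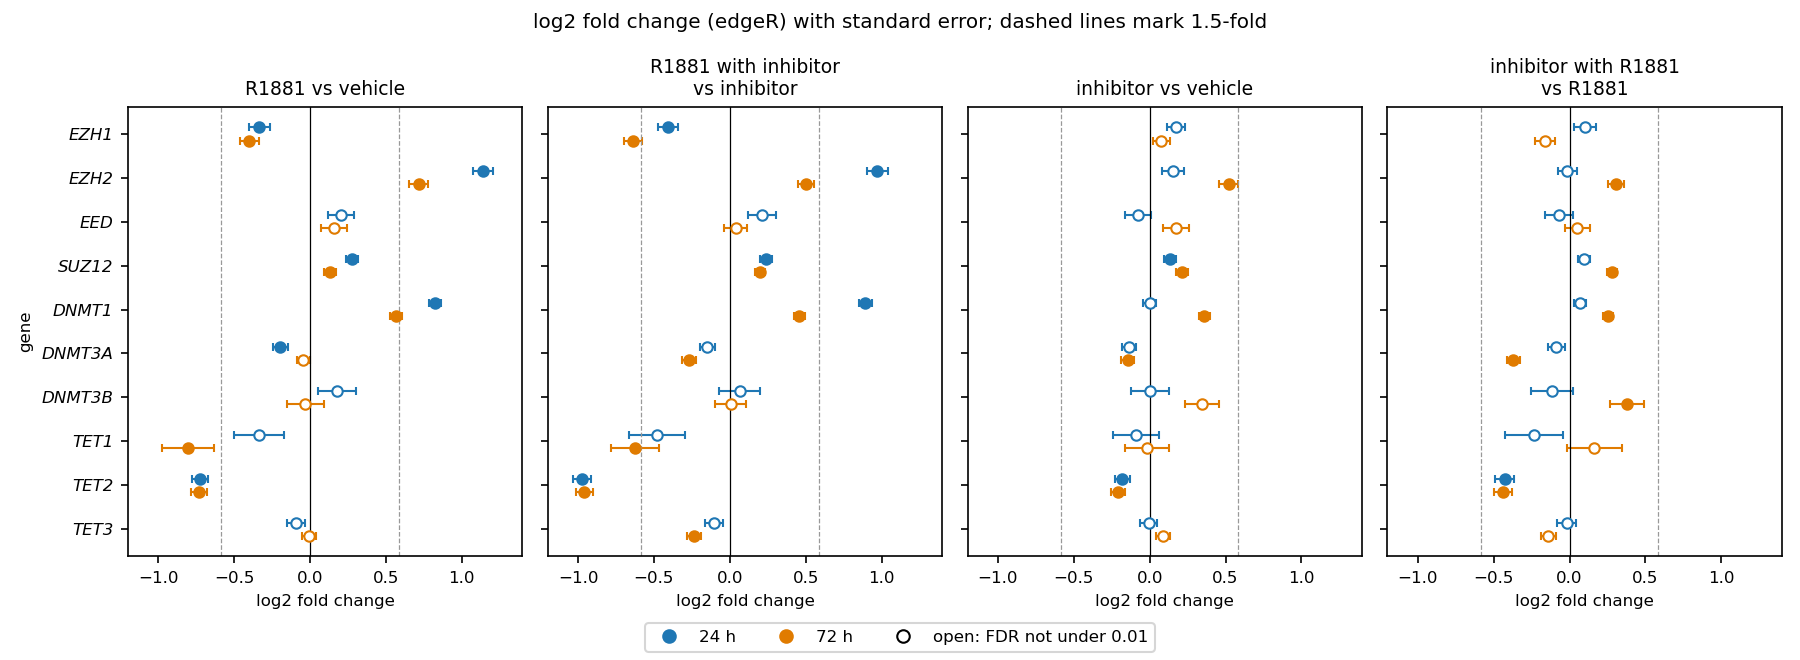
log2 fold change (horizontal axis) of each gene (vertical axis) in 4 comparisons, at 24 h (blue) and 72 h (orange), with the SE as bars. Open points did not pass FDR under 0.01, dashed lines mark 1.5-fold, and EZH2, DNMT1 and SUZ12 lie to the right and EZH1 and TET2 to the left of 0 in both R1881 panels.

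The inhibitors alone had smaller effects, and none of the 10 genes was called by edgeR or DESeq2 in either experiment, against 3.76% of genes at 24 h and 4.76% at 72 h. At an unadjusted p under 0.05, edgeR counted 5 genes with Senexin B and 7 with SNX631, and DESeq2 counted 3 and 6. With Senexin B, SUZ12 passed upward (1 of 10 against 13.4%) and TET2 downward (1 of 10 against 11.7%). With SNX631, EZH2, SUZ12 and DNMT1 passed upward (3 of 10 against 14.3%) and DNMT3A and TET2 downward (2 of 10 against 12.5%). Library ranges with inhibitor and vehicle did not overlap for 5 of 10 genes in each experiment, beside 45.7% of all genes at 24 h and 33.0% at 72 h.

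EZH2 rose with SNX631 from the 72 h vehicle values of 21.8 to 26.2 CPM to 36.6, 36.2, 33.3 and 31.2 CPM. The groups did not overlap, and the increase was 1.44-fold (log2 change 0.52 ± 0.06, FDR 1.42e-08). Senexin B libraries held 16.5, 15.98 and 16.4 CPM beside 14.0 to 15.5 CPM in vehicle, a log2 change of 0.15 ± 0.07 that did not pass (FDR 0.112). The difference between these changes was 0.38 ± 0.10 with an FDR of 0.0143, above the limit of 0.01.

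DNMT1 stood at 123, 125, 122 and 113 CPM with SNX631, all above the vehicle range of 91.6 to 96.5 CPM (log2 change 0.36 ± 0.04, FDR 4.38e-10). With Senexin B it stood at 74.9, 81.3 and 77.4 CPM beside 76.5 to 79.8 CPM in vehicle. DNMT1 passed the test of a difference between the inhibitor effects (0.37 ± 0.06, FDR 1.30e-05), the 1 gene of 10 that did, against 2.3% of all genes. With Senexin B the log2 change of DNMT1 was -0.001 ± 0.04 (FDR 0.987). The cell cycle list rose with both inhibitors, also with Senexin B, where DNMT1 did not. Of its 53 genes, 9 were called higher with Senexin B and 47 with SNX631, with median log2 changes of 0.38 and 0.89. Of all genes tested, 321 of 15963 and 454 of 16084 were called higher. Past the test upward were 27 and 52 genes of the list, beside 13.4% and 14.3% of all genes. The part of the cell cycle list in the DNMT1 result was likewise not tested.

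TET2 was lower with either inhibitor. At 24 h it stood at 55.9, 53.4 and 59.7 CPM with Senexin B beside 60.5 to 65.9 CPM in vehicle (log2 change -0.18 ± 0.05, FDR 0.00297). It no longer passed with DESeq2 (-0.17), with thinned counts (-0.15), and without vehicle replicate 2 (-0.15) or 3 (-0.16) or Senexin B replicate 1 (-0.17) or 2 (-0.14). With SNX631 it stood at 62.7, 56.2, 58.6 and 65.1 CPM, below the vehicle range of 67.5 to 74.3 CPM (log2 change -0.21 ± 0.05, FDR 0.000583), and it passed with any 1 library left out.

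SUZ12 rose with SNX631 by 0.21 ± 0.04 on the log2 scale (FDR 1.18e-05), from 93.9 to 102 CPM in vehicle to 104 to 121 CPM. Its change with Senexin B, 0.13 ± 0.04 (FDR 0.00773), no longer passed without any of the vehicle replicates (0.14, 0.14 and 0.13), without Senexin B replicate 1 (0.13) or 3 (0.13), and with DESeq2 (0.14), no filter (0.12), library totals (0.10) or thinned counts (0.15). DNMT3A fell with SNX631 by 0.15 ± 0.04 (FDR 0.00754), from 63.0 to 65.5 CPM to 55.7 to 59.9 CPM. It no longer passed without vehicle replicate 2 (-0.15), 3 (-0.15) or 4 (-0.14), without SNX631 replicate 1 (-0.13), 2 (-0.15) or 4 (-0.15), and with DESeq2 (-0.14) or a fit of all libraries (-0.13). DNMT3B stood at 9.25, 7.67, 11.9 and 11.3 CPM with SNX631, a wide spread that overlapped the vehicle range of 7.28 to 8.30 CPM. Its change of 0.34 ± 0.11 (FDR 0.0139) did not pass, but it passed without SNX631 replicate 2 (0.46), the lowest library.

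When the inhibitor was given together with R1881, 1 of the 10 genes passed the test against R1881 alone at 24 h and 6 at 72 h. None was called by edgeR or DESeq2, against 3.12% and 4.11% of all genes, while at an unadjusted p under 0.05 edgeR counted 2 genes in the first experiment and 8 in the second, and DESeq2 1 and 7. At 24 h TET2 passed downward, 1 of 10 against 9.99%, and none upward, against 12.7%. At 72 h EZH2, SUZ12, DNMT1 and DNMT3B passed upward, 4 of 10 against 17.8%, and DNMT3A and TET2 downward, 2 of 10 against 15.4%. Library ranges did not overlap for 4 of 10 genes at 24 h and 6 at 72 h, beside 42.1% and 37.7% of all genes.

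TET2 was lowest where R1881 and an inhibitor were given together. It stood at 28.2, 29.5 and 28.5 CPM with R1881 and Senexin B, beside 37.9 to 39.4 CPM with R1881 alone (log2 change -0.43 ± 0.06, FDR 3.18e-06). With R1881 and SNX631 it stood at 33.7, 33.4, 29.7 and 27.9 CPM, beside 39.7 to 43.8 CPM with R1881 alone (log2 change -0.44 ± 0.06, FDR 1.35e-07). None of these libraries reached its R1881 group.

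EZH2 and DNMT1 were highest in the same 72 h combination group. EZH2 stood there at 48.2, 50.6, 46.1 and 49.6 CPM, above the 37.1 to 43.0 CPM of R1881 alone (log2 change 0.31 ± 0.05, FDR 1.06e-05). In the 24 h combination it stood at 32.0, 32.2 and 31.9 CPM, within the 30.3 to 33.6 CPM of R1881 alone. The difference between the experiments was 0.33 ± 0.08 (FDR 0.00937), and EZH2 was the 1 gene of 10 that passed, against 2.77% of genes. With DESeq2 size factors its FDR was 0.0106.

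DNMT1 stood at 168, 170, 170 and 157 CPM with R1881 and SNX631, beside 131 to 147 CPM with R1881 (log2 change 0.25 ± 0.03, FDR 1.00e-07). At 24 h the combination held 143, 146 and 145 CPM beside 136 to 140 CPM, and the change did not pass. SUZ12 stood at 134, 132, 127 and 127 CPM beside 105 to 108 CPM (log2 change 0.28 ± 0.04, FDR 3.20e-08). DNMT3A stood at 49.4, 52.3, 45.8 and 45.0 CPM beside 57.3, 62.7, 63.6 and 64.2 CPM (log2 change -0.37 ± 0.05, FDR 1.62e-08). DNMT3B held 10.8, 9.91, 9.06 and 10.5 CPM beside 8.67, 6.78, 7.12 and 8.502 CPM. These DNMT3B groups did not overlap, yet the change (log2 0.38 ± 0.11, FDR 0.00573) no longer passed without R1881 replicate 2 (0.32) or 3 (0.34), without combination replicate 1 (0.34), 2 (0.39) or 4 (0.36), and with DESeq2 (0.38) or library totals (0.35). On the cell cycle list 1 of 53 genes was called higher at 24 h and 10 at 72 h, beside 258 of 15963 and 303 of 16084 genes tested. Past the test upward were 20 and 51 genes of the list, beside 12.7% and 17.8% of all genes. The part of the cell cycle list in these results was not tested.

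R1881 was also compared with and without the inhibitor. In the presence of Senexin B, EZH2 (log2 change 0.97 ± 0.07), DNMT1 (0.89 ± 0.04) and TET2 (-0.97 ± 0.06) were called, 3 of 10 against 18.9%. EZH2, SUZ12 and DNMT1 passed upward, 3 of 10 against 26.2%, and EZH1 and TET2 downward, 2 of 10 against 21.3%. In the presence of SNX631, EZH1 (-0.64 ± 0.06), TET1 (-0.62 ± 0.16) and TET2 (-0.96 ± 0.06) were called, 3 of 10 against 22%. EZH2 (0.50 ± 0.05), SUZ12 (0.20 ± 0.03) and DNMT1 (0.46 ± 0.03) passed upward, against 29.8%, and EZH1, DNMT3A (-0.27 ± 0.05), TET1, TET2 and TET3 (-0.24 ± 0.05) downward, 5 of 10 against 27.4%. TET1 fell under the fold limit without SNX631 replicate 3 (-0.49) or combination replicate 3 (-0.55) or 4 (-0.55), and SUZ12 did not pass with library totals alone (0.09). The last scaling moved the median log2 change of all genes at 72 h to -0.12 with R1881, with or without SNX631.

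The inhibitor did not change the R1881 effect of any of the 10 genes past the test. The interaction passed for 0 of 10 genes by edgeR and by DESeq2, against 2.09% of genes at 24 h and 7.09% at 72 h, and 0 were called, against 0.583% and 1.19%. At an unadjusted p under 0.05 it was counted for 1 gene at 24 h and 6 at 72 h by edgeR, and for 1 and 5 by DESeq2. For TET2 the interaction was -0.25 ± 0.08 at 24 h (FDR 0.0696) and -0.23 ± 0.08 at 72 h (FDR 0.0434). For EZH2 it was -0.17 ± 0.10 (FDR 0.412) and -0.22 ± 0.08 (FDR 0.0841). DNMT3A at 72 h had -0.22 ± 0.06 (FDR 0.0142) and TET3 -0.23 ± 0.07 (FDR 0.0178). The DNMT3A value passed without R1881 replicate 1 (-0.25), without combination replicate 2 (-0.27) and in a fit of all libraries (-0.23). The TET3 value passed without SNX631 replicate 2 (-0.26), without R1881 replicate 1 (-0.28) and with no filter on low counts (-0.21).

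The balance between the alternative catalytic subunits was followed as the ratio of their read counts within a library, which does not depend on scaling. Such ratios are not corrected for exon length (6988 bp for EZH1 and 4522 bp for EZH2), so a value of 1 does not mark equal levels. EZH2 had 0.550 counts per EZH1 count in 24 h vehicle (geometric mean) and 1.54 with R1881. The log2 ratio was -0.86 ± 0.05 (SD, n = 3) and 0.62 ± 0.06 (SD, n = 3), a difference of 1.49. Libraries did not overlap, and the exact permutation p was 0.10, the smallest that 3 libraries against 3 can give. With Senexin B the ratio was 0.546 alone and 1.42 with R1881.

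At 72 h the EZH2 to EZH1 ratio rose through the groups from 0.863 in vehicle to 1.18 with SNX631, 1.89 with R1881 and 2.60 with both. The log2 ratio was -0.21 ± 0.12, 0.24 ± 0.13, 0.92 ± 0.24 and 1.38 ± 0.07 (SD, n = 4 each). R1881 raised it by 1.13, SNX631 by 0.45 alone and by 0.46 in the presence of R1881, each with an exact two-sided permutation p of 0.0286, the smallest for 4 against 4, and 0.0381 after Benjamini-Hochberg adjustment over 8 tests. The 4 libraries with both agents lay above all others at 72 h.

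The ratio of DNMT3B to DNMT3A counts at 72 h was 0.123 in vehicle and 0.171 with SNX631, a log2 difference of 0.47 (exact permutation p = 0.0286, adjusted 0.0381). It was 0.125 with R1881 and 0.209 with both, a difference of 0.75 (exact permutation p = 0.0286, adjusted 0.0381). R1881 alone did not separate the groups (difference 0.02, exact permutation p = 0.914), nor did R1881 in the presence of SNX631 (difference 0.29, exact permutation p = 0.143, adjusted 0.163). At 24 h no adjusted p over the 8 ratio tests was below 0.20, but 3 libraries against 3 cannot give a p under 0.10. These tests therefore cannot decide whether a ratio changed at 24 h. The DNMT3B to DNMT3A ratio was 0.0993 in 24 h vehicle and 0.130 with R1881. The log2 difference was 0.39 and the libraries did not overlap (exact permutation p = 0.10). Senexin B gave a difference of 0.13 alone and -0.03 in the presence of R1881, and R1881 in the presence of Senexin B gave 0.23.

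**Figure D3:**
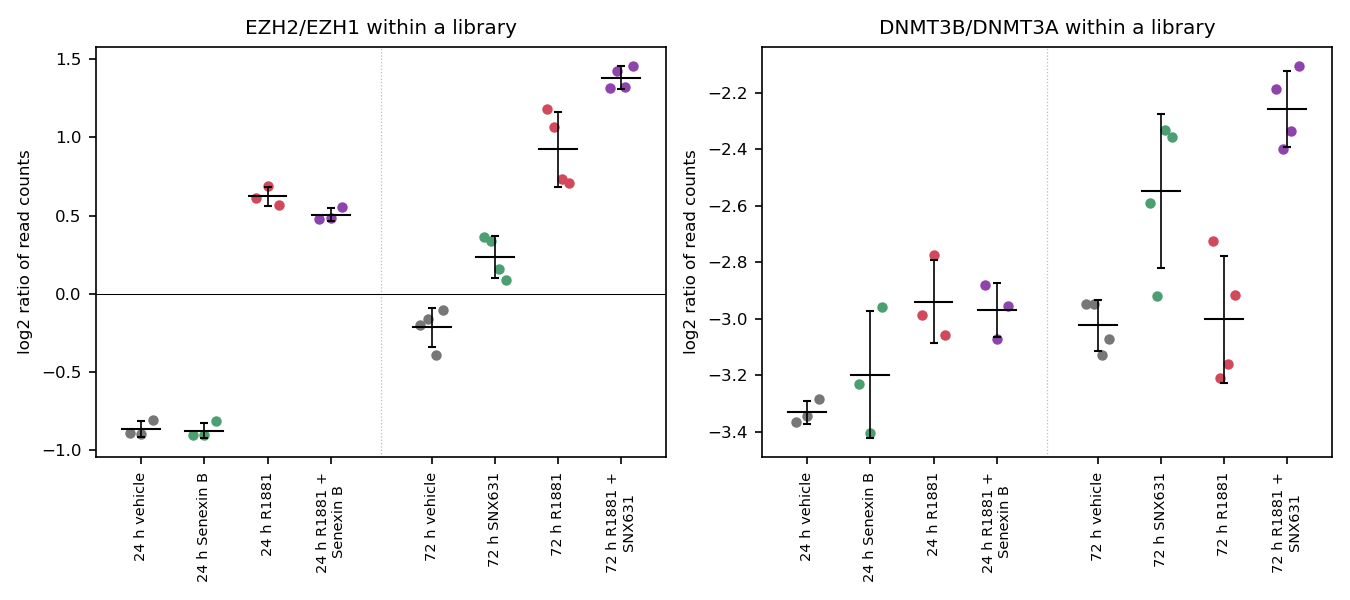
log2 of the ratio of read counts of EZH2 to EZH1 and of DNMT3B to DNMT3A (vertical axes) in each library (points), by group (horizontal axis), with mean and SD. The EZH2 to EZH1 ratio is highest in the 72 h libraries with R1881 and SNX631 (mean 1.38) and lowest in the 24 h groups without R1881.

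Across the 8 groups, EZH2 ran from 14.7 ± 0.7 CPM (SD, n = 3) in 24 h vehicle to 48.6 ± 2.0 CPM (SD, n = 4) in the 72 h combination. In that order its neighbours overlapped only between 72 h SNX631 and 24 h R1881 and between the 24 h R1881 groups. DNMT1 ran from 77.9 ± 3.2 CPM with Senexin B to 166 ± 6 CPM in the 72 h combination. TET2 ran the other way, from 69.99 ± 3.0 CPM in 72 h vehicle down to 28.7 ± 0.6 CPM in the 24 h combination, and its 4 highest groups were those without R1881. EZH1 likewise had its 4 groups without R1881, at 26.8 to 29.9 CPM, above the 4 with it, at 18.7 to 22.6 CPM. For TET3 and DNMT3B every pair of neighbours in the order overlapped. Levels were scaled within each experiment, so an order across the experiments also holds their other differences.

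The genes most like each in pattern were sought by Pearson's r of log2 CPM over the 28 libraries, centred on the mean of each experiment, among 13474 genes. These are descriptions, since the libraries share the same treatments. EZH2 was closest to BUB1, a kinase of the spindle checkpoint (r = 0.986), and NCAPH, a condensin subunit (0.984). DNMT1 was closest to TPX2, a spindle assembly factor (0.993), and FANCI, of the Fanconi DNA repair pathway (0.992). TET2 was closest to SALL2 (0.986), a zinc finger factor, and SPTAN1 (0.984), a spectrin. EZH1 was closest to LINC00472 (0.965) and EME2 (0.965), SUZ12 to IPO5 (0.964) and BRIX1 (0.956), and DNMT3A to NCOA1 (0.920) and DMAC2L (0.913). The values were lower for TET3 with DSP (0.877) and DYNC1H1 (0.838), TET1 with ASXL2 (0.863) and RBAK (0.862), DNMT3B with NCBP1 (0.768) and UTP25 (0.716) and EED with RANBP6 (0.756) and UPF3B (0.726).

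Among themselves the 10 genes followed no single direction. EZH2 and DNMT1 had an r of 0.976 over the 28 libraries, and EZH2 and TET2 one of -0.907. EZH1 had an r of -0.786 with EZH2 and 0.847 with TET2.

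Other genes of the Polycomb and DNA methylation pathways were taken from a list of 67, of which 64 were tested in each experiment. At 24 h R1881 gave 8 calls upward and 4 downward, beside 19% of all genes called, and at 72 h it gave 6 and 4, beside 19.8%. Past the test without the fold limit were 23 upward and 20 downward at 24 h, beside 26.2% and 22.1% of all genes, and 28 and 17 at 72 h, beside 27.6% and 24.6%. The median log2 change of the list was 0.05 and 0.08. Of the genes that assist DNMT1 at replication, all 5 tested passed upward in both experiments, and 4 of them were called in the first and 3 in the second. UHRF1, which brings DNMT1 to hemimethylated DNA, rose from 3.25 to 37.1 CPM at 24 h (log2 change 3.51 ± 0.11) and from 11.0 to 33.0 CPM at 72 h (1.59 ± 0.08). HELLS, a chromatin remodeller of DNA methylation, rose by 2.26 ± 0.10 and 1.34 ± 0.08 on the log2 scale, and PCNA, the replication clamp, by 1.80 ± 0.05 and 1.07 ± 0.04.

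Of the 9 PRC2 accessory subunits tested, 3 passed upward and 2 downward with R1881 at 24 h, and 4 and 2 at 72 h. Of all genes, 26.2% passed upward and 22.1% downward at 24 h, and 27.6% and 24.6% at 72 h. RBBP7, a histone-binding subunit, rose with R1881 in both experiments, from 103 to 175 CPM at 24 h (log2 change 0.76 ± 0.04) and from 114 to 190 CPM at 72 h (0.74 ± 0.03). RBBP7 reached 267 CPM with R1881 and Senexin B and 279 CPM with R1881 and SNX631, while the inhibitors alone left it at 98.2 and 122 CPM. Its interaction was 0.68 ± 0.05 at 24 h (FDR 1.11e-10) and 0.46 ± 0.04 at 72 h, the latter below the fold limit. EPOP, a PRC2 partner that binds elongin, was called with Senexin B (0.71 ± 0.08, from 16.1 to 26.8 CPM) and with SNX631 (0.63 ± 0.06, from 24.5 to 37.9 CPM), and its R1881 change of 0.72 ± 0.08 was called at 24 h. HELLS (1.01 ± 0.08) and PCNA (0.69 ± 0.04) were called with SNX631 as well. UHRF1 was called with both inhibitors too (0.96 ± 0.13 and 1.03 ± 0.08), and its interaction was -0.81 ± 0.14 (FDR 0.000315) and -0.61 ± 0.10 (FDR 2.93e-05).

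Of the 23 PRC1 subunits tested, 2 were called lower with R1881 in both experiments, beside 1462 of 15963 genes called lower at 24 h and 1627 of 16084 at 72 h, so the share was near that of all genes. Past the test were 4 PRC1 genes upward and 9 downward at 24 h, beside 26.2% and 22.1% of all genes. At 72 h they were 8 and 8, beside 27.6% and 24.6%. PCGF2 fell by 0.86 ± 0.05 and 0.69 ± 0.04 on the log2 scale, and PHC1 by 0.67 ± 0.08 and 0.69 ± 0.07. KDM6A, which removes the methyl groups PRC2 places, fell from 441 to 260 CPM (-0.76 ± 0.03) and from 465 to 247 CPM (-0.91 ± 0.03). Of the demethylation and repair genes, NEIL1, a DNA glycosylase, fell by 1.01 ± 0.11 and 1.27 ± 0.09, and GADD45B, a stress-induced gene, rose by 0.83 ± 0.17 and 0.91 ± 0.15. IDH1, which makes the 2-oxoglutarate that TET and KDM6 enzymes need, rose from 267 to 830 CPM (1.64 ± 0.03) and from 255 to 759 CPM (1.57 ± 0.03). Of the 8 methyl-CpG readers, 1 passed upward at each time with R1881, beside 26.2% and 27.6% of all genes. Downward, 3 and 2 readers passed, beside 22.1% and 24.6%.

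**Figure D4:**
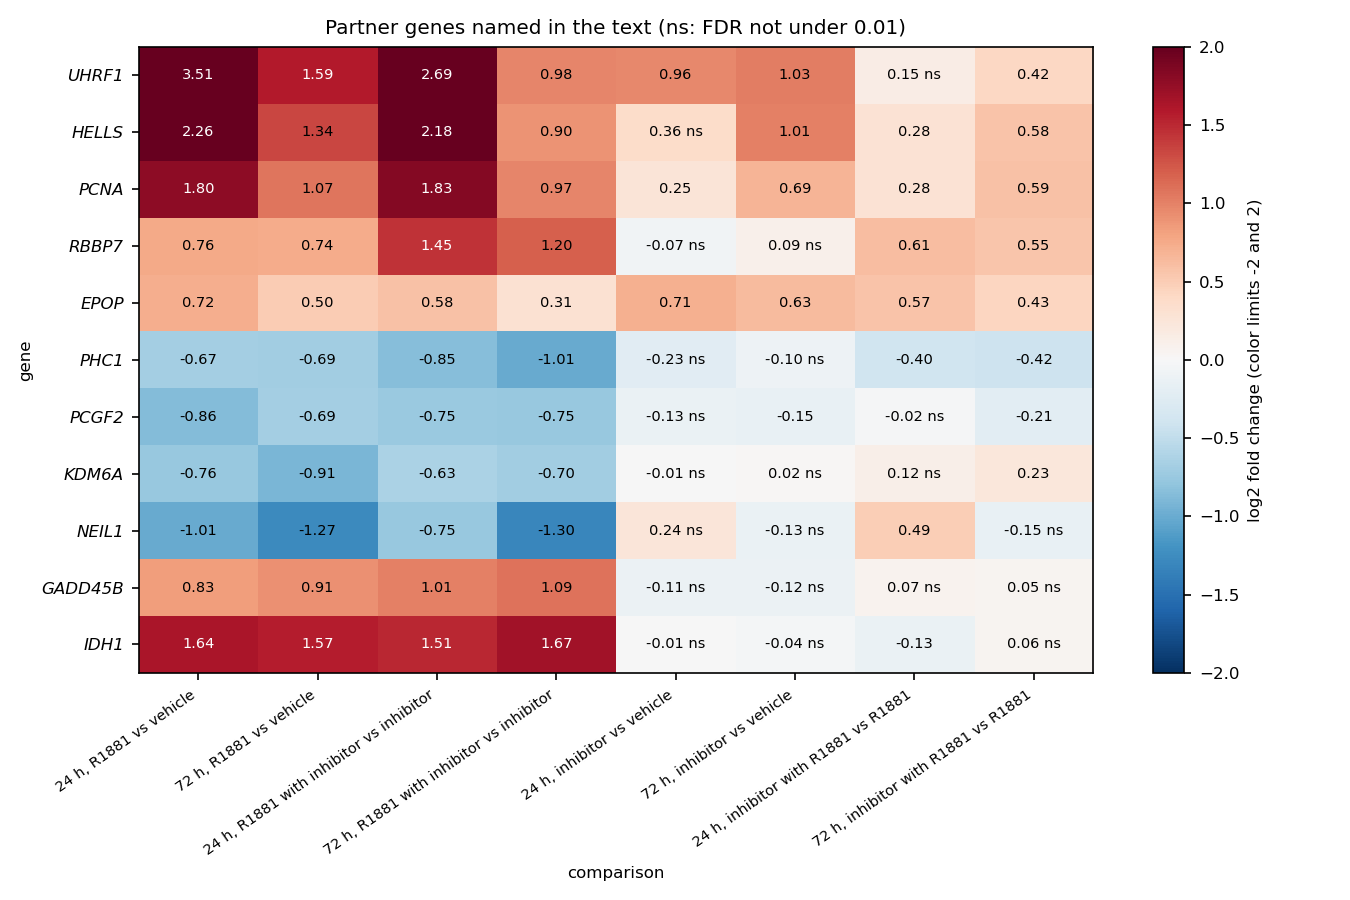
log2 fold change (color and printed value) of 11 partner genes (rows) in 4 comparisons at 24 h and 72 h (columns). The R1881 columns run from 3.51 for UHRF1 at 24 h to -1.30 for NEIL1 with SNX631 at 72 h, and ns marks values with an FDR not under 0.01.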

How the data were processed

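RNA-Seq was run on 28 libraries of LNCaP cells. The authors deposited 1 table of estimated counts per gene, not all whole (16.9% of values above 0 had a fraction), rounded here. Submitters' processing notes name FastQC, cutadapt 2.8, STAR 2.7.2b, featureCounts (Subread 2.0.3) and builds GRCh38.p13 and GRCm39. How they gave fractions was not given in the sources used here. edgeR 4.0.16 (R 4.3.3) tested genes kept by filterByExpr (minimum count 10, minimum total 15) with TMM scaling, within each experiment. Differences between experiments came from 1 fit of all 28 libraries. Ratios had exact two-sided permutation tests. DESeq2 1.42.0, other scalings, no filter, thinned counts, a replicate block and each library left out were alternatives. Scripts were tested on simulated data. Levels are CPM, and exon lengths and overlapping genes come from GENCODE 29. The text names all 10 members and the partner genes called in 1 direction at both times for R1881 or the inhibitor (with or without R1881), or called for the interaction. MKI67, MCM2 and TOP2A stand for the cell cycle. The members and lists were chosen with earlier results of these data known. The table also holds 2 entries that are not human genes, all at 0.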

Additional observations from a re-analysis of the deposited data

Results flagged for a closer look

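The effects of R1881 and of the inhibitors differed between the experiments for some genes by a test of the difference itself. For EZH2 the R1881 effect at 72 h minus that at 24 h was -0.42 on the log2 scale, and for DNMT1 it was -0.26. The inhibitor effect of DNMT1 differed by 0.37, and in the presence of R1881 that of EZH2 differed by 0.33. Inhibitor, dose and time cannot be told apart.

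The R1881 effect also differed with and without the inhibitor (interaction, log2) for genes of the other lists. At 24 h the interaction was 0.68 for RBBP7, -0.81 for UHRF1, -0.66 for TOP2A and -0.42 for MCM2. At 72 h it was 0.46 for RBBP7, 0.21 for KDM6A, -0.61 for UHRF1, -0.59 for MKI67, -0.57 for TOP2A, -0.43 for HELLS and -0.38 for MCM2.

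Among 40 sets of 4 libraries (10 genes in 4 groups at 72 h), 2 held a library apart from the other 3 by Dixon's criterion, and chance alone gives about 1 in 20. DNMT1 in replicate 4 of R1881 with SNX631 was the lowest, at 157 CPM, with a gap of 0.839 of the range. TET1 in vehicle replicate 1 was the lowest, at 4.17 CPM, with a gap of 0.840 of the range.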

How the results depend on the processing

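Genes called with R1881, with or without inhibitor, stayed at 3 of 10 in each experiment under the other scalings, no filter, DESeq2, thinned counts, 1 fit of all libraries and the replicate block, and ranged from 2 to 4 when 1 library was left out. With FDR under 0.05 and no fold limit the counts were 7 (R1881) and 7 (R1881 with Senexin B) at 24 h and 6 and 8 at 72 h, 4 and 6 for the inhibitor alone, 1 and 8 for the inhibitor with R1881, and 3 for the 72 h interaction. Of the 2 genes past the test with Senexin B, 0 were left with thinned counts or DESeq2 and 1 with no filter, and 0 to 2 without 1 library (0 without vehicle replicate 2 or 3 or Senexin B replicate 1, and 1 without Senexin B replicate 2 or 3). The 72 h interaction, 0 genes, became 1 with no filter or in 1 fit of all libraries, and 0 to 2 without 1 library (1 without SNX631 replicate 2 or combination replicate 2, and 2 without R1881 replicate 1). Same-numbered libraries of different groups had correlations of deviations from -0.01 to 0.07 at 24 h and -0.07 to 0.07 at 72 h. Those of other numbers ran from -0.06 to 0.05 and from -0.10 to 0.09. The medians were 0.015 beside -0.008 at 24 h and -0.01 beside 0.002 at 72 h. At 24 h 7 of 12 libraries were closest to their own number, and at 72 h 2 of 16. The replicate numbers thus showed no sign of pairing at 72 h and at most a weak one at 24 h. With the replicate block 2 genes passed the difference of inhibitor effects in place of 1, and 2 in place of 1 with R1881 present, where DESeq2 size factors gave 0.

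Leaving out 1 library moved the log2 EZH2 to EZH1 ratio at 24 h with Senexin B, -0.01, to between -0.039 and 0.018, and the DNMT3B to DNMT3A ratio at 72 h with R1881, 0.02, to between -0.072 and 0.089. The SNX631 effect on EZH2 to EZH1 with R1881 then lay between 0.39 and 0.54. Its permutation p was over 0.05 without any 1 of the 4 combination libraries. The effect of SNX631 without R1881 on DNMT3B to DNMT3A lay between 0.40 and 0.60, with p over 0.05 without any 1 of the 4 vehicle libraries. Yet the groups stayed apart. The lowest combination log2 ratio (1.32) exceeded the highest with R1881 (1.18), and the lowest with SNX631 (-2.92) the highest in vehicle (-2.95). With 1 library left out the groups are of unequal size, and p exceeds 0.05 once another assignment of the libraries gives as large a difference. This can happen though the groups stay apart, so these p-values alone do not show dependence on 1 library. The R1881 effects on EZH2 to EZH1 at 72 h, with or without SNX631, kept p under 0.05 in all 8 cases. Counts with their fractions moved no ratio past its threshold.

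The alternatives for the other lists were chosen after seeing the data. Partner genes called for the inhibitor with R1881, 1 at each time, were 0 with library totals at both times, and at 72 h 2 with no filter and 0 with thinned counts. Without 1 library they were 1 to 2 at 24 h (2 without R1881 replicate 2 or combination replicate 3) and 0 to 2 at 72 h (0 without R1881 replicate 2 or 3, and 2 without R1881 replicate 4 or combination replicate 2). The 72 h interaction of the partners, 1, was 0 to 1 and became 0 without replicate 2 of any group. Cell cycle genes called with SNX631 and R1881, 10, were 5 with library totals, and the 72 h interaction gave 5 (without vehicle replicate 1) to 10 in place of 8. The cause of these changes was not tested. TET1, with 26 to 159 counts, is the least precisely measured.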
